A study of Mus musculus with 10 samples.

Results

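Innate lymphoid cells (ILCs) are tissue lymphocytes without rearranged antigen receptors, and 8 genes for secreted factors that act on neighbouring cells were followed in ILCs of mouse skin: Areg, Hbegf, Csf1, Lif, Osm, Bmp7, Il6 and Penk. The genes were taken by name, as the rows of the gene tables whose mouse Ensembl identifier maps to 1 of these symbols, and all 8 were found among 47643 identifiers. All 8 were also among the 16208 genes with enough counts to be tested. RNA was sequenced from ILCs of adult B6 mouse skin in 10 libraries of 4 groups. These were epidermal ILCs (3 libraries), dermal ILCs sorted as CCR6+ (2), dermal ILCs sorted as Sca1+ (2) and subcutaneous ILCs (3). All mice carried the same strain label, and no genotype, treatment, age beyond adult, sex or pooling is given in the labels used here. For replicate 2 of each dermal population the sort marker stands in the title and not under cell type, and the title was followed. According to the design text samples were made in triplicate, and 2 libraries of each dermal population were analysed. Separate mice are not mentioned for the replicates, so the p-values below measure the spread between libraries, part of which may be technical.

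The 8 genes encode signals that lymphocytes send to epithelium, stroma, myeloid cells and nerves. Areg (amphiregulin) and Hbegf (heparin-binding EGF-like growth factor) are made as membrane-anchored precursors, are shed by proteases such as ADAM17, and bind the EGF receptor on epithelial and stromal cells. Amphiregulin is a known product of type 2 ILCs in tissue repair. Csf1 is the growth factor of macrophages, read through the receptor Csf1r. Il6, Lif and Osm (oncostatin M) are cytokines of the interleukin-6 family, whose receptors share the subunit gp130, encoded by Il6st, and signal through STAT3. Bmp7 is a bone morphogenetic protein, read by serine/threonine kinase receptors through SMAD proteins. Penk encodes proenkephalin, the precursor of the enkephalin opioid peptides.

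Upstream sequences are shown for Areg, Csf1, Lif and Il6, which were taken because an entry could be used and not by their calls. All 4 were called lower in epidermal than in subcutaneous ILCs (below), as were Hbegf, Osm and Bmp7. The sequences are from RefSeq (GRCm38.p6) and give the 250 bases before the annotated start, on the coding strand. The windows are chr5:91139349-91139598 (plus strand) for Areg, chr3:107760470-107760719 (minus strand) for Csf1, chr11:4257318-4257567 (plus strand) for Lif and chr5:30012864-30013113 (plus strand) for Il6. Capitals mark matches, on either strand, to a kB-like motif (GGG and CC with any 5 bases between them), TGANTCA (AP-1-like), TGACG (part of a cAMP response element), TTCNNNGAA (STAT-like) or TATAAA, the letters of a TATA box.
Areg: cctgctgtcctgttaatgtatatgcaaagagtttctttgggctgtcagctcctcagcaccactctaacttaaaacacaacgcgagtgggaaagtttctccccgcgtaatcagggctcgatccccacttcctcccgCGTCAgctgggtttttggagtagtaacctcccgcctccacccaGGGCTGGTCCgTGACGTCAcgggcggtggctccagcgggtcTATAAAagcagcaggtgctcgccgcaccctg
Csf1: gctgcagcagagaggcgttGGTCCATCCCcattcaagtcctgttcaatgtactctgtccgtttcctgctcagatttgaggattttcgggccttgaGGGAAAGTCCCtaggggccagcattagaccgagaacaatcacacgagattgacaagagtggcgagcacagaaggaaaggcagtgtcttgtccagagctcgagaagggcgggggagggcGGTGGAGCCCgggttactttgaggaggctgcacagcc
Lif: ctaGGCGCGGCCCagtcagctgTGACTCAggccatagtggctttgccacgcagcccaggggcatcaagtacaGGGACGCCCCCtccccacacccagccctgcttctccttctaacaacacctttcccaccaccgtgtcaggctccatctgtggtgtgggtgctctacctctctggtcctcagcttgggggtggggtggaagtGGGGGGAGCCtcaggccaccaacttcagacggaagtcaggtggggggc
Il6: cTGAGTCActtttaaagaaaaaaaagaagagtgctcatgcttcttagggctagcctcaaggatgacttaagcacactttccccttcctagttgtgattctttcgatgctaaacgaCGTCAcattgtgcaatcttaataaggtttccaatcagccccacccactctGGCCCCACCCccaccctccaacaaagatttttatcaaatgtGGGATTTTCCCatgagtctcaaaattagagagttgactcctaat

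The 4 windows differed in what they held. Areg had 3 matches to the cAMP response element motif, of which those starting at -61 and -58 overlap as a palindrome, together with 1 kB-like match at -72 and a TATA box at -31. Csf1 had 4 kB-like matches and no match to the other motifs, and the matches starting at -155 and -154 overlap on opposite strands. Lif had 4 kB-like matches, with such a pair at -178 and -177, and 1 AP-1-like match at -228. Il6 had 3 kB-like matches, with such a pair at -44 and -43, 1 AP-1-like match at -249 and 1 cAMP response element match at -135. No window held a STAT-like match, and no match overlapped one of another motif. Over all 32851 promoter windows of the same length, 45.8% held the kB-like motif, 6.75% the AP-1-like motif, 17.8% the cAMP response element motif, 7.02% the STAT-like motif and 12.4% the TATA box. A match describes the letters of the window and is not a measured binding site.

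**Figure D1:**
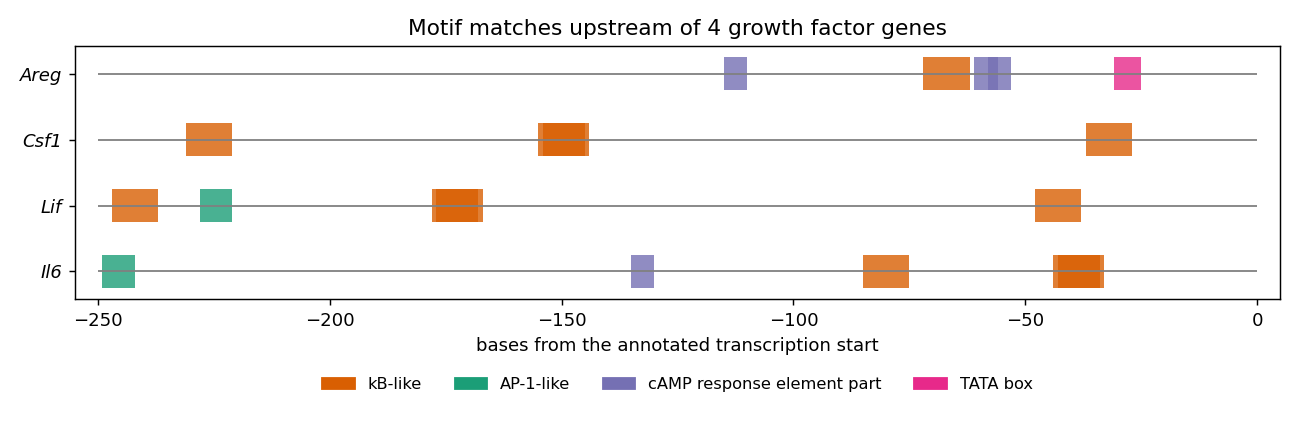
Positions of motif matches in the 250 bases before the annotated start of Areg, Csf1, Lif and Il6 (x axis, bases from the start; colours, motifs; darker areas, overlapping matches). All 4 windows hold at least 1 kB-like match, and the TATA box match is in Areg.

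Expected counts summed to between 11627222 and 18118544 per library, and 15018 to 19461 genes had a count. Levels of 1 gene across libraries are given below as CPM, counts relative to TMM-scaled library totals, in which 3 counts of a library equal 0.149 to 0.258 CPM. The sort markers followed the labels. Ccr6 averaged 1128 ± 199 CPM in epidermal, 833 ± 76.9 in dermal CCR6+, 71.3 ± 42.9 in dermal Sca1+ and 8.1 ± 13.9 in subcutaneous libraries, and Ly6a, which encodes Sca1, averaged 207 ± 51.5, 157 ± 78.9, 1406 ± 17.1 and 1520 ± 330 CPM in the same order (SD, n = 3, 2, 2 and 3). The summed level of 12 ILC markers was 5691 to 6800 CPM in epidermal, 11179 to 12470 in dermal CCR6+, 12660 to 12692 in dermal Sca1+ and 10579 to 12062 in subcutaneous libraries. Of its single genes 3 were called higher, 5 lower and 4 did not pass in epidermal against subcutaneous ILCs. Over all genes tested, 6.87% were called higher and 13.3% lower in this comparison.

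The summed levels of most marker lists of other skin cells differed between the groups by more than that of the ILC markers, the T cell list being the exception. The summed level of 14 keratinocyte markers was 3323, 9027 and 8979 CPM in epidermal replicates 1, 2 and 3, 1675 to 2347 in dermal CCR6+, 2160 to 2456 in dermal Sca1+ and 109 to 250 in subcutaneous libraries. For 12 fibroblast markers it was 26.6 to 43.3 CPM in epidermal, 1343 to 2276 in dermal CCR6+, 2741 to 3926 in dermal Sca1+ and 3178 to 4829 in subcutaneous libraries. Fibroblast transcripts were thus lowest in the epidermal libraries, where Pdgfra and Mfap5 had no count. The 14 macrophage and dendritic cell markers summed to 8.08 to 17.1, 194 to 252, 369 to 730 and 4252 to 7992 CPM, the 10 endothelial markers to 3.9 to 7.86, 205 to 498, 666 to 668 and 376 to 750 CPM, and the 9 mast cell and basophil markers to 0.0495 to 0.139, 37.3 to 49.7, 346 to 426 and 157 to 357 CPM, each in the order epidermal, dermal CCR6+, dermal Sca1+ and subcutaneous. In the epidermal libraries Mrc1, Fcgr1 and Itgax of the macrophage and dendritic cell list had no count, nor had Cdh5, Kdr, Tek, Plvap and Cldn5 of the endothelial list. The 8 glandular epithelium markers summed to 31.7 to 42.4, 25 to 30.4, 49.6 to 72 and 1653 to 4557 CPM in the same order, and the 12 T cell markers to 694 to 882, 1081 to 1171, 837 to 1009 and 556 to 874 CPM. The part of these other cells in the differences of the 8 genes was not tested, and in bulk RNA fewer cells of a type and less RNA per cell cannot be told apart.

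**Figure D2:**
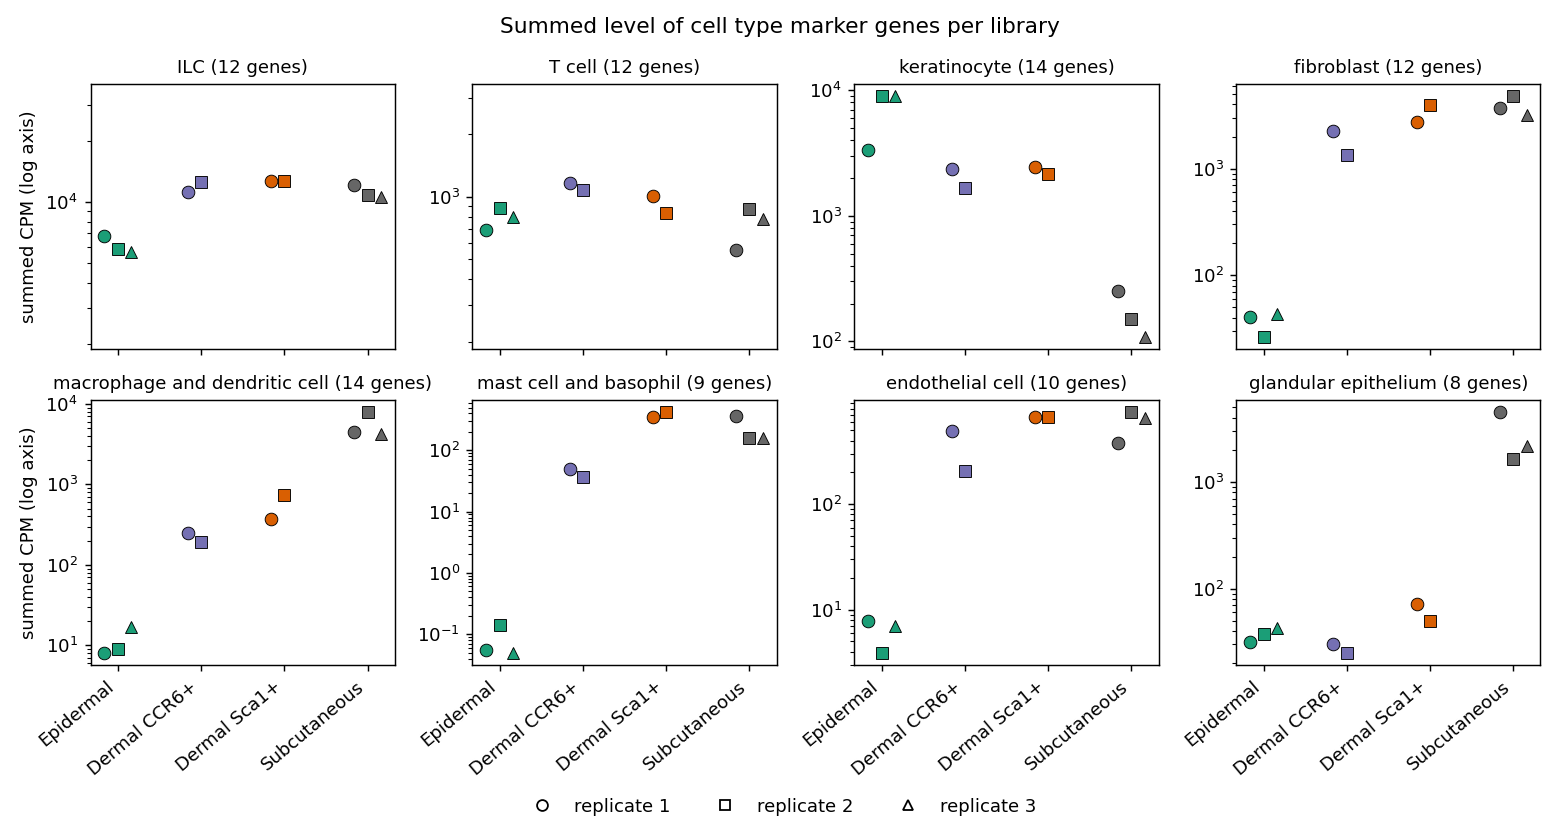
Summed CPM (log axis) of the marker genes of 8 cell types in each library, by group. Epidermal libraries are lowest for fibroblast, macrophage and dendritic cell, mast cell and endothelial markers, and highest for keratinocyte markers.

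The mean CPM of each of the 8 genes but Penk was lowest in the epidermal and highest in the subcutaneous libraries. Between epidermal and subcutaneous ILCs, 7 of 8 genes were called lower and none higher at a Benjamini-Hochberg adjusted p under 0.05 in edgeR's quasi-likelihood test, while 20.2% of all genes tested were called in this comparison, 13.3% as lower and 6.87% as higher. Their median log2 fold change was -3.42, against -0.02 over all genes tested. Between epidermal and dermal Sca1+ ILCs, 6 genes were called lower and Penk higher, against 11.4% of all genes called (8.66% lower, 2.76% higher). Between dermal CCR6+ and subcutaneous ILCs 4 were called lower, against 7.46% of all genes (3.71% lower, 3.75% higher). The other 3 comparisons gave fewer calls. Areg, Lif and Il6 were called lower in epidermal than in dermal CCR6+ ILCs (6.18% of all genes called, 5.19% lower and 0.987% higher), Csf1 and Lif lower in dermal CCR6+ than in dermal Sca1+ ILCs (0.642% of all genes called, 0.346% lower and 0.296% higher), and Csf1 lower in dermal Sca1+ than in subcutaneous ILCs (2.2% of all genes called, 0.993% lower and 1.21% higher). The comparisons share groups and are not independent. A test over all 4 groups at once called 6 of the 8, against 17.4% of all genes, and Bmp7 and Penk had adjusted p-values of 0.113 and 0.0838 in it. In the comparison of dermal CCR6+ with subcutaneous ILCs only Csf1 and Lif stayed called without dermal CCR6+ replicate 1 or 2 or subcutaneous replicate 1, 2 or 3, which leaves 2 of the 4 calls. In the comparison of the dermal populations Csf1 alone stayed called without any 1 of the 4 dermal libraries, 3 genes were called without epidermal replicate 1, and in that of dermal Sca1+ with subcutaneous ILCs no gene was called without dermal Sca1+ replicate 1 or 2 or subcutaneous replicate 1 or 3, where the share of all genes called was 0.893% to 1.24%.

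**Figure D3:**
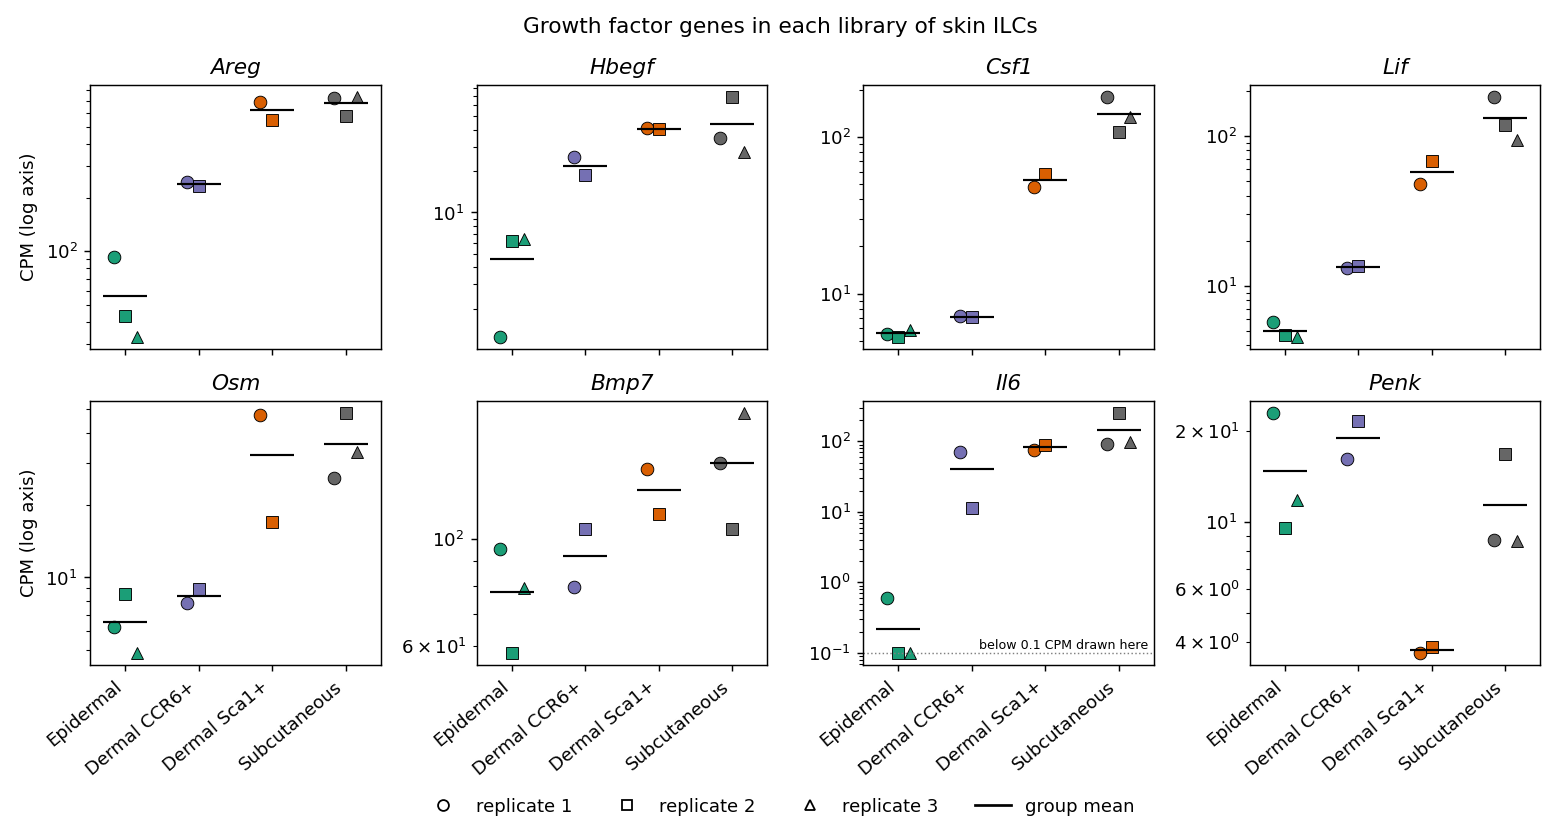
CPM (log axis) of the 8 genes in each library, by group; symbols give the replicate number and lines the group mean. Areg, Csf1, Lif and Il6 are lowest in the 3 epidermal libraries, Bmp7 varies over a narrow range, and Penk is lowest in the 2 dermal Sca1+ libraries; Il6 values below 0.1 CPM are drawn at 0.1.

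On the deposited TPM scale, which corrects for transcript length and allows genes to be compared, Areg was the most abundant of the 8 in every group. It averaged 79.8 TPM in epidermal, 297 in dermal CCR6+, 776 in dermal Sca1+ and 826 in subcutaneous libraries. Among genes with a TPM above 0 in the group, this placed it at the percentiles 90.4, 96.9, 98.9 and 99.1. The gene that came next differed between the groups. In the epidermal libraries it was Bmp7 with 31.4 TPM, before Penk with 18.5, and the other genes had 0.503 to 4.24 TPM. In the other 3 groups it was Il6, with a mean of 61.9 TPM in dermal CCR6+, 128 in dermal Sca1+ and 202 in subcutaneous libraries, which is the lowest of the 8 in the epidermal libraries at 0.503 TPM. The place of Il6 in the dermal CCR6+ group rests on replicate 1, with 106 TPM, since replicate 2 had 17.6 TPM of Il6, below its 36.4 of Bmp7 and 23.7 of Penk. Csf1 ranked 3 in the subcutaneous libraries at 58.2 TPM and last in the dermal CCR6+ libraries at 3.55 TPM. Penk was last in the dermal Sca1+ libraries at 4.03 TPM and in the subcutaneous libraries at 12 TPM.

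Areg (ENSMUSG00000029378.5, chr5:91139599-91148432, mm10) had 92.1, 43.1 and 33 CPM in the epidermal libraries, 245 and 233 in the dermal CCR6+ libraries, 689 and 547 in the dermal Sca1+ libraries, and 723, 574 and 736 in the subcutaneous libraries. Every epidermal library lay below every other library, the dermal CCR6+ pair lay between, and the dermal Sca1+ and subcutaneous libraries overlapped. The group means were 56.1 ± 31.6, 239 ± 8.3, 618 ± 100 and 678 ± 89.9 CPM in that order (SD, n = 3, 2, 2 and 3). Areg was 12.1 times lower in epidermal than in subcutaneous ILCs (log2 fold change -3.59 ± 0.361 SE, adjusted p = 8.49e-05 by edgeR with Benjamini-Hochberg adjustment). It was 11 times lower in epidermal than in dermal Sca1+ ILCs (-3.46 ± 0.375, edgeR adjusted p = 0.000247) and 4.25 times lower than in dermal CCR6+ ILCs (-2.09 ± 0.363, edgeR adjusted p = 0.00632). These 3 calls held without any 1 library. The dermal CCR6+ libraries were 2.84 times lower than the subcutaneous ones (-1.51 ± 0.384, edgeR adjusted p = 0.0407), which did not hold without any 1 of the 7 dermal and subcutaneous libraries, with edgeR adjusted p-values of 0.0514 to 0.235. Neither dermal CCR6+ against dermal Sca1+ (-1.37 ± 0.406, edgeR adjusted p = 0.238) nor dermal Sca1+ against subcutaneous ILCs (-0.13 ± 0.365, edgeR adjusted p = 0.93) passed.

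Hbegf (ENSMUSG00000024486.5, chr18:36504927-36515805), the second EGF receptor ligand, ran at lower levels in the same order of groups. It had 1.25, 6.2 and 6.44 CPM in epidermal, 25.2 and 18.6 in dermal CCR6+, 41.3 and 40.1 in dermal Sca1+, and 34.5, 69.1 and 27.6 in subcutaneous libraries. The epidermal libraries were all below the rest, and the subcutaneous libraries spread around the dermal Sca1+ pair, with replicate 2 the highest of the 10. Hbegf was 9.45 times lower in epidermal than in subcutaneous ILCs (log2 fold change -3.24 ± 0.591 SE, edgeR adjusted p = 0.00331) and 8.8 times lower than in dermal Sca1+ ILCs (-3.14 ± 0.619, edgeR adjusted p = 0.00856). Epidermal against dermal CCR6+ ILCs gave -2.24 ± 0.608 with an edgeR adjusted p of 0.0585, and the other comparisons gave edgeR adjusted p-values of 0.379 to 0.972. Keratinocytes are a known source of EGF receptor ligands, and their marker sum was highest in the epidermal libraries, at 3323, 9027 and 8979 CPM. The part of keratinocytes in the levels of Areg and Hbegf was not tested.

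None of the other EGF family ligands was called lower in epidermal than in subcutaneous ILCs. Of 11 EGF family ligand genes listed, 9 were tested, Areg and Hbegf among them. Between epidermal and subcutaneous ILCs 2 were called lower, 1 higher and 6 did not pass, against 13.3% of all genes lower and 6.87% higher. Their median log2 fold change was -1.12, against -0.02 over all genes tested. The gene called higher was Ereg (epiregulin), with 6.61 ± 4.59 CPM in epidermal libraries and no count in any subcutaneous or dermal CCR6+ library. Btc (betacellulin) had 16.1 ± 10.5 CPM in epidermal libraries, no count in the 4 dermal libraries and 1.2 ± 1.24 CPM in subcutaneous libraries, and it was called higher in epidermal than in both dermal populations (edgeR adjusted p = 0.0418 against CCR6+ and 0.029 against Sca1+). Ereg was called higher in epidermal ILCs against the same populations as well (edgeR adjusted p = 0.0446 and 0.049). In the epidermal against dermal Sca1+ comparison the 9 ligands therefore split into 2 higher, 2 lower and 5 that did not pass. Over all genes, 2.76% were called higher and 8.66% lower in it. These epidermal ligands sat beside the highest keratinocyte marker sums, whose part was not tested.

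Of 9 genes of the EGF receptors, their regulators and the shedding machinery, 1 was called lower and 1 higher in epidermal against subcutaneous ILCs. This is near the share of all genes called in that comparison, 20.2% (13.3% lower, 6.87% higher). Errfi1, a feedback inhibitor of the EGF receptor, had 41.2 ± 7.96 CPM in epidermal, 333 ± 70.3 in dermal CCR6+, 393 ± 15 in dermal Sca1+ and 385 ± 69.2 in subcutaneous libraries. It fell in epidermal ILCs against each of the other groups, by 3.22 on the log2 scale against subcutaneous, 3.25 against dermal Sca1+ and 3.02 against dermal CCR6+ ILCs (edgeR adjusted p = 1.11e-05, 2.72e-05 and 9.21e-05). Adam17, the sheddase of both ligands, was higher in epidermal libraries, with 160 ± 45.3 CPM against 83.9 ± 16.6 in dermal Sca1+ and 95.2 ± 6.9 in subcutaneous libraries (edgeR adjusted p = 0.0487 and 0.0458). Erbb3, a receptor for neuregulins, was lower in both dermal populations, with 11.1 ± 0.976 CPM in CCR6+ and 10.4 ± 1.27 in Sca1+ libraries against 42.9 ± 18.4 in subcutaneous libraries (edgeR adjusted p = 0.0209 and 0.0382). The receptor Egfr itself had 18.7 ± 8.88 CPM in epidermal, 8.32 ± 4.58 in dermal CCR6+, 16.2 ± 5.4 in dermal Sca1+ and 23.7 ± 6.13 in subcutaneous libraries, and was named after its values were seen.

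Csf1 (ENSMUSG00000014599.10, chr3:107741048-107760469) was low in epidermal and dermal CCR6+ ILCs and high in dermal Sca1+ and subcutaneous ILCs. It had 5.53, 5.29 and 5.85 CPM in epidermal, 7.19 and 7.06 in dermal CCR6+, 47.7 and 58.4 in dermal Sca1+, and 181, 108 and 134 in subcutaneous libraries. No 2 groups overlapped, and the 5 epidermal and dermal CCR6+ libraries lay within a narrow range. Csf1 was 25.4 times lower in epidermal than in subcutaneous ILCs (log2 fold change -4.66 ± 0.266 SE, edgeR adjusted p = 4.23e-06) and 19.8 times lower in dermal CCR6+ than in subcutaneous ILCs (-4.31 ± 0.312, edgeR adjusted p = 6.81e-05). Within the dermis it was 7.44 times lower in CCR6+ than in Sca1+ ILCs (-2.89 ± 0.302, edgeR adjusted p = 0.00228), and this call held without any 1 library but not in a fit of only the 2 dermal groups, where the adjusted p was 0.0507. Epidermal ILCs were 9.53 times lower than dermal Sca1+ ILCs (-3.25 ± 0.263, edgeR adjusted p = 4.67e-05). Epidermal against dermal CCR6+ ILCs did not pass the test (-0.36 ± 0.264, edgeR adjusted p = 0.525). Dermal Sca1+ ILCs were 2.66 times lower than subcutaneous ILCs (-1.41 ± 0.266, edgeR adjusted p = 0.0239). This did not hold without dermal Sca1+ replicate 1 or 2 or subcutaneous replicate 1 or 3. Nor did it hold in limma on log2(TPM + 1) and log2(TPM + 0.1) or under the replicate block by title number (limma or edgeR adjusted p = 0.0662 to 0.0947).

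Most colony stimulating factors and their receptors were called in the same direction as Csf1 between epidermal and subcutaneous ILCs. Of 8 genes listed and tested, Csf1 included, 7 were called lower in epidermal than in subcutaneous ILCs, none higher and 1 did not pass. Over all genes, 13.3% were called lower and 6.87% higher. The median log2 fold change of the 8 was -5.23, against -0.02 over all genes tested. The 1 that did not pass was Il34, the other ligand of Csf1r, with 18.4 ± 7.26 CPM in epidermal and 4.9 ± 3.96 CPM in subcutaneous libraries (log2 fold change 1.91 ± 0.733 SE, edgeR adjusted p = 0.0953), and it was not called in any of the 6 comparisons. Csf2, the gene of GM-CSF, had 52.2 ± 3.08 CPM in epidermal, 38.9 ± 24.8 in dermal CCR6+, 298 ± 59 in dermal Sca1+ and 971 ± 158 in subcutaneous libraries. It was called lower in epidermal than in dermal Sca1+ and subcutaneous ILCs (edgeR adjusted p = 0.000919 and 2.58e-05), lower in dermal CCR6+ than in those groups (0.00947 and 0.000241), and lower in dermal Sca1+ than in subcutaneous ILCs (0.0392). Csf1r, the receptor of Csf1 and a macrophage gene, had 0.495 ± 0.858 CPM in epidermal, 12.7 ± 9.87 in dermal CCR6+, 28.1 ± 18.8 in dermal Sca1+ and 322 ± 113 in subcutaneous libraries. It was called lower in epidermal than in subcutaneous ILCs (edgeR adjusted p = 0.000269), as was the GM-CSF receptor subunit Csf2rb, with 0.941 ± 1.63 CPM in epidermal and 41.1 ± 4.83 in subcutaneous libraries (edgeR adjusted p = 0.0108). Beside these receptors, the macrophage and dendritic cell marker sum, which counts Csf1r among its 14 genes, was 8.08 to 17.1 CPM in epidermal and 4252 to 7992 CPM in subcutaneous libraries. The part of these cells in the receptor levels was not tested.

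Il6 (ENSMUSG00000025746.11, chr5:30013114-30019981), the founding cytokine of its family, was at or near 0 in the epidermal libraries. They held 11, 0 and 1 counts of it in all, or 0.596, 0 and 0.0495 CPM, where 3 counts of replicate 2 equal 0.209 CPM. The dermal CCR6+ libraries had 71 and 11.4 CPM, the dermal Sca1+ libraries 76.8 and 87.9, and the subcutaneous libraries 91.1, 253 and 98.3. The epidermal libraries lay far below the rest, and dermal CCR6+ replicate 2 was the lowest of the others. Il6 was lower in epidermal than in subcutaneous ILCs (log2 fold change -9.31 ± 1.07 SE, edgeR adjusted p = 0.000184), than in dermal Sca1+ ILCs (-8.47 ± 1.07, edgeR adjusted p = 0.00061) and than in dermal CCR6+ ILCs (-7.47 ± 1.05, edgeR adjusted p = 0.00179). The sizes of these folds rest on epidermal replicate 1, which holds 11 of the counts, and without it they were -11.93, -11.09 and -10.1. The last was -5.61 without dermal CCR6+ replicate 1 and -8.25 without replicate 2, and the first was -8.67 without subcutaneous replicate 2, all still called. The 3 comparisons among the other groups gave edgeR adjusted p-values of 0.212 to 0.745. Fibroblasts and endothelial cells are known sources of Il6, and their marker sums were lowest in the epidermal libraries, at 26.6 to 43.3 and 3.9 to 7.86 CPM. The part of these cells in the level of Il6 was not tested.

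Lif (ENSMUSG00000034394.14, chr11:4257557-4272514), the leukaemia inhibitory factor gene, had a separate level in each group. It had 5.75, 4.67 and 4.56 CPM in epidermal, 13.2 and 13.5 in dermal CCR6+, 48 and 67.6 in dermal Sca1+, and 182, 119 and 94.2 in subcutaneous libraries, so that no 2 groups overlapped. Lif was 26.4 times lower in epidermal than in subcutaneous ILCs (log2 fold change -4.72 ± 0.317 SE, edgeR adjusted p = 8.73e-06), 11.5 times lower in epidermal than in dermal Sca1+ ILCs (-3.53 ± 0.316, edgeR adjusted p = 8.49e-05) and 9.88 times lower in dermal CCR6+ than in subcutaneous ILCs (-3.3 ± 0.349, edgeR adjusted p = 0.000488). These 3 held without any 1 library. The smaller differences depended on single libraries and on the method. Epidermal against dermal CCR6+ ILCs (-1.42 ± 0.308, edgeR adjusted p = 0.0212) was lost without epidermal replicate 2 or 3 or either dermal CCR6+ library (0.0634 to 0.0869), and dermal CCR6+ against dermal Sca1+ ILCs (-2.11 ± 0.346, edgeR adjusted p = 0.0248) was lost without any 1 of the 4 dermal libraries (0.0571 to 0.193). Both calls were also lost in limma on log2(TPM + 1) and log2(TPM + 0.1) and in fits of only the 2 groups compared. The first was lost under the replicate block by title number as well. Over these settings the limma or edgeR adjusted p was 0.0699 to 0.217 for the first and 0.0805 to 0.0897 for the second. Dermal Sca1+ against subcutaneous ILCs did not pass (-1.19 ± 0.313, edgeR adjusted p = 0.0916).

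Osm (ENSMUSG00000058755.3, chr11:4236420-4241026), a neighbour of Lif on chromosome 11, had overlapping levels in epidermal and dermal CCR6+ ILCs, and higher ones in dermal Sca1+ and subcutaneous ILCs. It had 6.23, 8.5 and 4.86 CPM in epidermal and 7.83 and 8.98 in dermal CCR6+ libraries, and 47.3 and 17 in dermal Sca1+ and 25.9, 48.2 and 33.1 in subcutaneous libraries, which overlapped with each other. Osm was 5.47 times lower in epidermal than in subcutaneous ILCs (log2 fold change -2.45 ± 0.452 SE, edgeR adjusted p = 0.00352). It was 4.93 times lower in epidermal than in dermal Sca1+ ILCs (-2.3 ± 0.479, edgeR adjusted p = 0.0112), but without dermal Sca1+ replicate 1, the higher of that pair, the log2 fold change was -1.38 and the edgeR adjusted p 0.151. It was 4.25 times lower in dermal CCR6+ than in subcutaneous ILCs (-2.09 ± 0.519, edgeR adjusted p = 0.0369), which did not hold without any 1 library of these 2 groups (0.0513 to 0.188). Under the replicate block by title number the last 2 calls were lost as well (edgeR adjusted p = 0.0511 and 0.074 in that order). Dermal CCR6+ against dermal Sca1+ ILCs did not pass (-1.94 ± 0.543, edgeR adjusted p = 0.203).

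Within the interleukin-6 family, 9 of 10 listed ligand genes were tested. Between epidermal and subcutaneous ILCs 4 were called lower, 1 higher and 4 did not pass, against 13.3% of all genes lower and 6.87% higher. Their median log2 fold change was -2.45, against -0.02 over all genes tested. Beside Il6, Lif and Osm the fourth called lower was Ebi3, a subunit shared by interleukin-27 and interleukin-35, with 3.62 ± 0.694 CPM in epidermal and 30.1 ± 8.9 CPM in subcutaneous libraries (edgeR adjusted p = 0.000597). The ligand called higher was Clcf1, with 13.8 ± 4.43 CPM in epidermal and 3.72 ± 1 CPM in subcutaneous libraries (edgeR adjusted p = 0.0364). Of the 7 receptor genes 3 were called lower, 1 higher and 3 did not pass in the same comparison, with a median of -2.6. The shared subunit Il6st had 14.4 ± 4.48 CPM in epidermal, 62.1 ± 60.6 in dermal CCR6+, 206 ± 46.6 in dermal Sca1+ and 180 ± 30.7 in subcutaneous libraries, and was called lower in epidermal ILCs against each (edgeR adjusted p = 0.0492, 0.00161 and 0.000989 in that order). Lifr, the receptor of Lif, had 4.95 ± 2.81 CPM in epidermal and 62 ± 24.4 in subcutaneous libraries (edgeR adjusted p = 0.00237), and Il11ra1, the interleukin-11 receptor, 7.29 ± 4.76 and 44.4 ± 12.2 CPM (edgeR adjusted p = 0.00623). Il6ra ran the other way, with 43.4 ± 5.45 CPM in epidermal and 51.7 ± 2.36 in dermal CCR6+ libraries against 17.5 ± 6.32 in subcutaneous libraries (edgeR adjusted p = 0.0114 and 0.0161). The ligand Il6 and its own receptor subunit were thus called in opposite directions in epidermal against subcutaneous ILCs.

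Genes of the STAT3 pathway and its feedback were lower in the epidermis where they were called at all. Of 10 listed and tested, 5 were called lower, none higher and 5 did not pass in epidermal against subcutaneous ILCs. The median log2 fold change was -1.08, against -0.02 over all genes tested, of which 13.3% were called lower and 6.87% higher. The same numbers were called against dermal CCR6+ ILCs, where 5.19% of all genes were called lower and 0.987% higher. Socs3, the feedback inhibitor of gp130 signalling, had 19.6 ± 1.59 CPM in epidermal, 115 ± 66.5 in dermal CCR6+, 171 ± 37 in dermal Sca1+ and 216 ± 32.9 in subcutaneous libraries (epidermal lower in each comparison, edgeR adjusted p = 0.00116, 0.000223 and 5.34e-05 in that order). Socs2, induced by STAT5 as well, had 13.8 ± 4.47, 61 ± 6, 207 ± 15.7 and 249 ± 23.9 CPM in the same order of groups. It was lower in epidermal than in subcutaneous ILCs (edgeR adjusted p = 7.41e-06), lower in epidermal than in dermal Sca1+ ILCs (2.09e-05), and lower in dermal CCR6+ than in dermal Sca1+ ILCs (0.0265). Pim1, a kinase gene induced by STAT proteins, had 26.6 ± 11.2 CPM in epidermal and 249 ± 94 in subcutaneous libraries (edgeR adjusted p = 0.000239). Stat3 itself was called in 1 comparison, with 281 ± 52.6 CPM in epidermal and 628 ± 150 in dermal CCR6+ libraries (edgeR adjusted p = 0.0121).

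**Figure D4:**
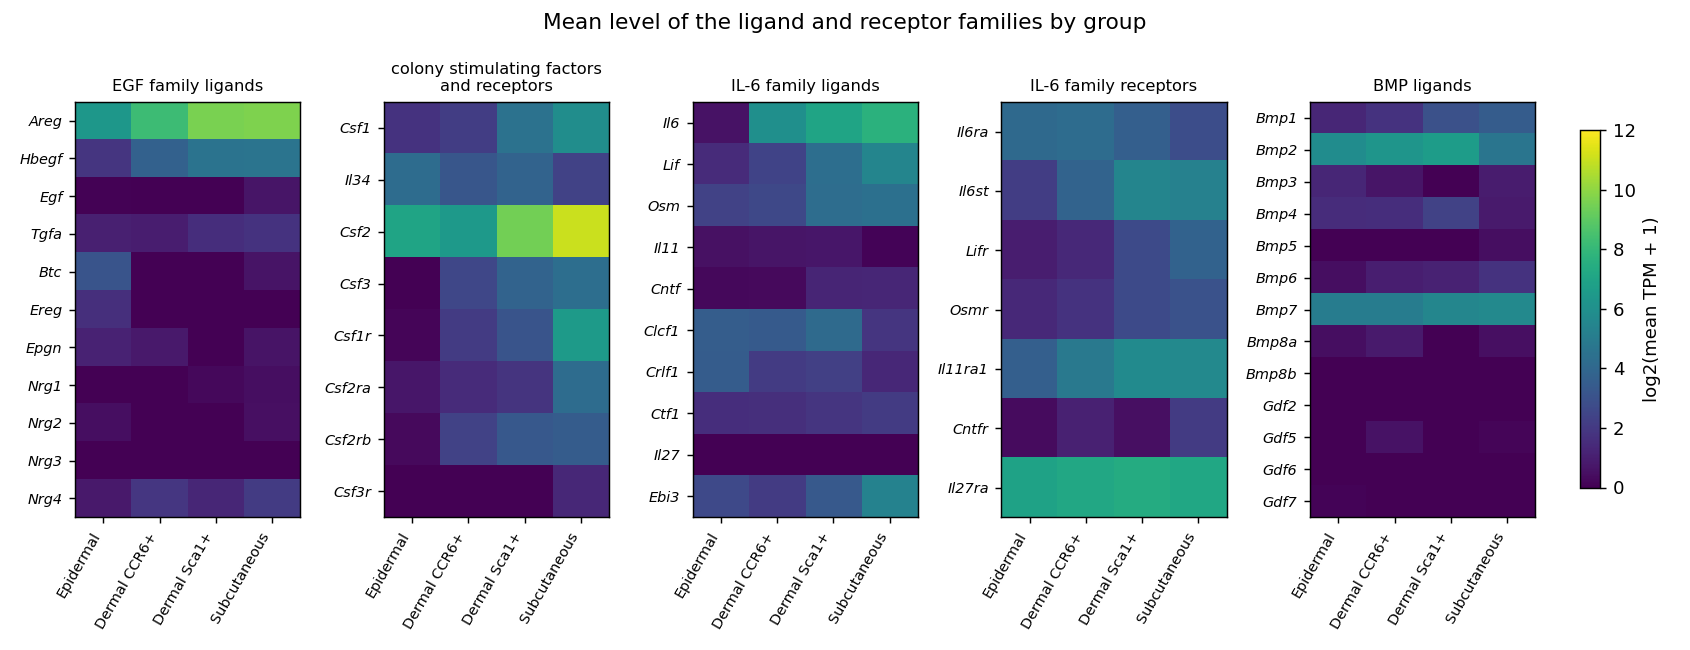
Mean level as log2(TPM + 1), from dark (0) to bright (12), of the listed ligands and receptors (rows) in the 4 groups (columns). Areg, Csf2 and Il6 are brightest in the subcutaneous column; Btc and Ereg have their highest means in the epidermal column.

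Bmp7 (ENSMUSG00000008999.7, chr2:172868012-172940321) varied least among the 8. It had 95.6, 58 and 79.2 CPM in epidermal, 79.5 and 105 in dermal CCR6+, 140 and 113 in dermal Sca1+, and 144, 105 and 183 in subcutaneous libraries. Each group overlapped or nearly touched the next in this order. The single call was epidermal against subcutaneous ILCs, where it was 1.85 times lower (log2 fold change -0.89 ± 0.264 SE, edgeR adjusted p = 0.0375). This call was lost without epidermal replicate 2 or 3, dermal Sca1+ replicate 1 or 2, or subcutaneous replicate 1 or 3, with edgeR adjusted p-values of 0.0529 to 0.13. It was also lost in limma on log2(TPM + 1) and log2(TPM + 0.1) and with only the 2 groups compared (limma or edgeR adjusted p = 0.0519 to 0.121). In all, 10 of 19 alternatives kept it. The other 5 comparisons gave edgeR adjusted p-values of 0.154 to 0.856.

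Bmp2, the more abundant bone morphogenetic protein gene by TPM in all groups but the subcutaneous, followed another order. It averaged 56.5 TPM in epidermal, 76.2 in dermal CCR6+, 98.4 in dermal Sca1+ and 24.2 in subcutaneous libraries, against 31.4, 31.7, 45.1 and 49.3 TPM of Bmp7. In CPM, Bmp2 was higher in epidermal (142 ± 55.8), dermal CCR6+ (217 ± 17.6) and dermal Sca1+ libraries (279 ± 40.5) than in subcutaneous libraries (69 ± 27.6; edgeR adjusted p = 0.0482, 0.0201 and 0.0184). Bmp1, which encodes a protease of procollagen and not a signalling ligand despite its name, was lower in epidermal libraries, with 3.98 ± 0.792 CPM against 20.4 ± 5.88 in dermal Sca1+ and 31.9 ± 5.47 in subcutaneous libraries (edgeR adjusted p = 0.00265 and 0.00026). Of 13 listed ligand genes 8 were tested, and in epidermal against subcutaneous ILCs 1 was called higher, 2 lower and 5 did not pass. Their median log2 fold change was -0.66, against -0.02 over all genes tested, of which 6.87% were called higher and 13.3% lower. Of 18 tested receptors, antagonists and targets, 3 were called higher, 3 lower and 12 did not pass in that comparison. Among them the decoy receptor Bambi had 15.4 ± 7.58 CPM in epidermal and 104 ± 21.1 in subcutaneous libraries (edgeR adjusted p = 0.000308), and the target Id3 42.9 ± 9.52 and 84.6 ± 12.7 CPM (0.0204). The inhibitory Smad7, with 86.4 ± 53.7 and 16.7 ± 7.5 CPM (0.00524), and the target Id1, with 11 ± 5.16 and 2.91 ± 1.43 CPM (0.0419), were called the other way. The antagonist Grem1 (gremlin) had 10.1 ± 5 CPM in dermal CCR6+ and 13.1 ± 1.32 in dermal Sca1+ libraries and no count in any subcutaneous library (edgeR adjusted p = 0.0156 and 0.0316).

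Penk (ENSMUSG00000045573.9, chr4:4133531-4138819) did not follow the other 7 genes. It had 22.9, 9.54 and 11.8 CPM in epidermal, 16.2 and 21.6 in dermal CCR6+, 3.69 and 3.87 in dermal Sca1+, and 8.7, 16.8 and 8.64 in subcutaneous libraries. The dermal Sca1+ pair was below every other library, and the other 3 groups overlapped. Penk was 3.9 times higher in epidermal than in dermal Sca1+ ILCs (log2 fold change 1.96 ± 0.565 SE, edgeR adjusted p = 0.04998). This call stands at the threshold and was lost without any 1 of the libraries other than epidermal replicate 2, with edgeR adjusted p-values of 0.0542 to 0.196. It was also lost with RLE size factors, no filter beyond 1 count, only the 2 groups compared and either replicate block (edgeR adjusted p = 0.05007 to 0.125). In all, 5 of 19 alternatives kept it. Dermal CCR6+ against dermal Sca1+ ILCs gave a difference of 2.32 ± 0.602 on the log2 scale with an edgeR adjusted p of 0.162, and dermal Sca1+ against subcutaneous ILCs -1.59 ± 0.556 with 0.201. Penk shares its position with A830012C17Rik on the opposite strand, whose level did not exceed 0.163 CPM in any library, and the preparation does not mark strand. The other 7 genes overlap no annotated gene.

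Of 12 genes of opioid peptides, their processing and receptors, 5 were tested. Pcsk1, the prohormone convertase that cleaves peptide precursors, had 28.4 ± 11.7 CPM in epidermal, 20.8 ± 0.785 in dermal CCR6+, 142 ± 11.4 in dermal Sca1+ and 175 ± 71.9 in subcutaneous libraries. It was called lower in epidermal than in dermal Sca1+ and subcutaneous ILCs (edgeR adjusted p = 0.00395 and 0.000833) and lower in dermal CCR6+ than in both (0.0282 and 0.00301). In epidermal against dermal Sca1+ ILCs the convertase was called lower and 3 of the 5 tested genes did not pass. The precursor Penk was called higher there, at the threshold and in a call that most alternatives lost. Over all genes, 2.76% were called higher and 8.66% lower in this comparison.

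Among growth factors outside these families, nearly all calls in the epidermal comparisons were of lower levels in epidermal ILCs. Of 26 listed and tested, 16 were called lower, 1 higher and 9 did not pass in epidermal against subcutaneous ILCs. Their median log2 fold change was -4.19, against -0.02 over all genes tested, of which 13.3% were called lower and 6.87% higher. Against dermal Sca1+ ILCs 13 were called lower and 1 higher (8.66% and 2.76% of all genes). Against dermal CCR6+ ILCs 7 were called lower and none higher (5.19% and 0.987% of all genes). Grn (progranulin) had 84.4 ± 14.2 CPM in epidermal and 557 ± 145 in subcutaneous libraries (edgeR adjusted p = 3.95e-05), Ptn (pleiotrophin) 9.52 ± 7.21 and 276 ± 152 CPM (0.000275), and Gas6, a ligand of TAM receptors, 37.8 ± 10.3 and 159 ± 20.8 CPM (0.00165). Tnfsf11, the gene of RANK ligand, had 25.3 ± 5 CPM in epidermal, 56.1 ± 1.19 in dermal CCR6+, 71.2 ± 7.44 in dermal Sca1+ and 119 ± 11.7 in subcutaneous libraries, and was called lower in epidermal ILCs against each (edgeR adjusted p = 0.0121, 0.00174 and 5.98e-05 in that order). Tgfb1 had 223 ± 47.1 CPM in epidermal, 450 ± 69.2 in dermal CCR6+ and 430 ± 33.6 in dermal Sca1+ libraries (edgeR adjusted p = 0.0256 and 0.0239). Its mean in subcutaneous libraries was 351 ± 61.7 CPM. Kitl (stem cell factor) was without a count in epidermal libraries, against 9.35 ± 1.93 CPM in dermal CCR6+ libraries (edgeR adjusted p = 0.000246). It had 16 ± 5.45 CPM in dermal Sca1+ and 27.6 ± 4.29 in subcutaneous libraries. Pdgfb ran the other way, with 63.8 ± 20 CPM in epidermal and 22.2 ± 5.16 in dermal Sca1+ libraries (edgeR adjusted p = 0.0318). Its means were 25 ± 1.39 CPM in dermal CCR6+ and 10.6 ± 3.98 in subcutaneous libraries. Several genes of this list, Ptn and Kitl among them, are also made by fibroblasts or endothelial cells, whose marker sums were lowest in the epidermal libraries. The part of these cells was not tested.

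**Figure D5:**
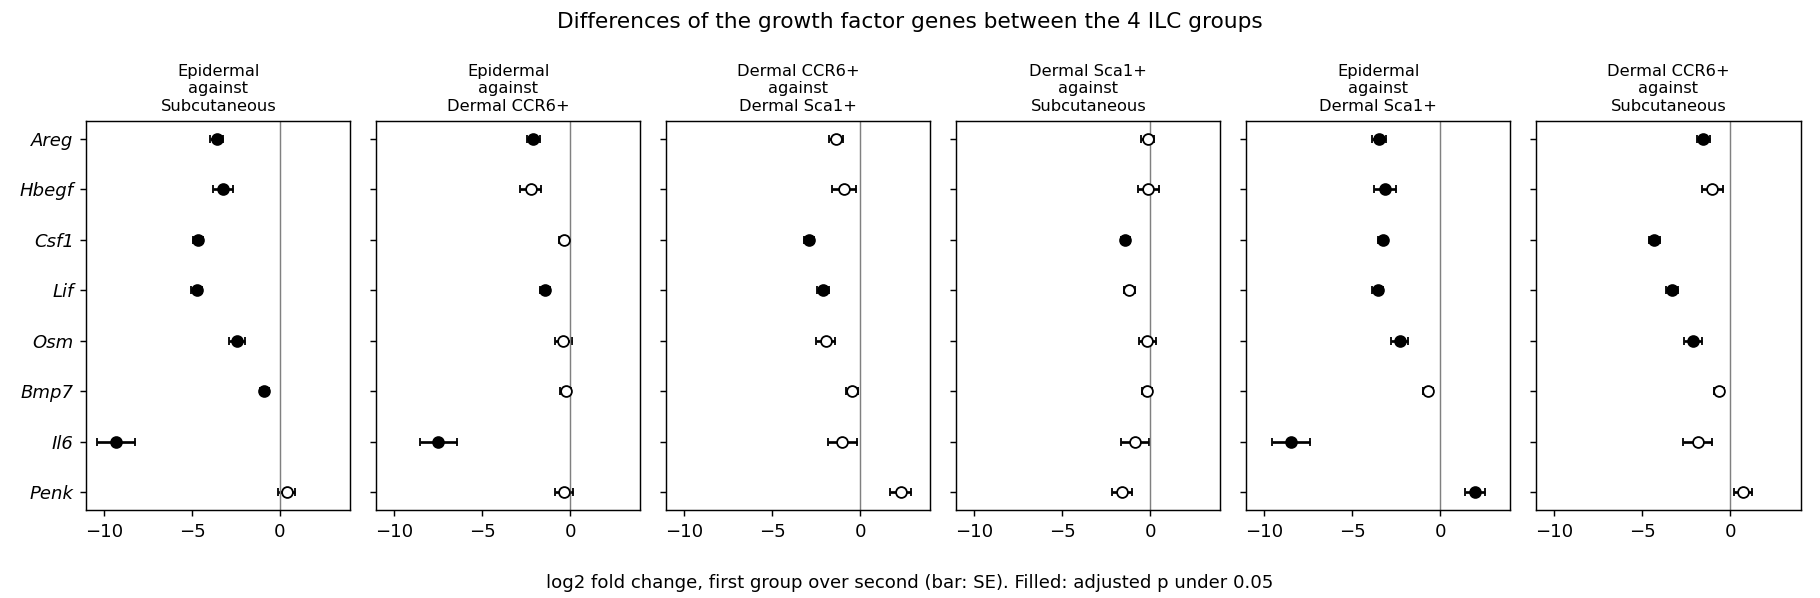
Log2 fold change with its SE of the 8 genes in the 6 comparisons, first-named group over second (filled, adjusted p under 0.05 by edgeR). Points left of 0 are lower in the first-named group; Il6 lies farthest left in the 3 epidermal comparisons, and Penk is the only filled point right of 0.

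The deposited names of the libraries carry numbers that fall into 3 runs, and both of the epidermal and subcutaneous groups have 1 library in each, while either dermal population has 1 library in 2 of the runs. Whether a run marks a preparation or sequencing batch is not stated. Within the 3 runs, the epidermal against subcutaneous log2 differences of Areg were -3.73, -4.47 and -2.97, those of Csf1 -4.32, -4.49 and -5, and those of Lif -4.64, -4.33 and -4.95. Il6 gave -10.92, -9.09 and -6.97, Hbegf -3.45, -2.08 and -4.65, Osm -2.49, -2.73 and -2.03, and Bmp7 -0.86, -1.21 and -0.59. These are differences of log2 CPM with a prior count of 2 added. The first 2 values of Il6 depend on that prior, since their epidermal libraries held 0 and 1 counts of it. All 7 were lower in the epidermal library of each run, which any pairing of these libraries would give. For each of the 7, every epidermal library lay below every subcutaneous one, so the runs add no separate support for the direction. The share of all genes tested that separate in this way is not given. Penk gave -0.8, 0.44 and 1.38 and changed sign between runs. Within the dermis, the dermal CCR6+ against dermal Sca1+ differences in the 2 runs were -2.71 and -3.03 for Csf1, -1.86 and -2.31 for Lif, and 2.09 and 2.44 for Penk. Those of Il6 were -0.11 and -2.94, so that its difference within the dermis was close to 0 in 1 run. For these genes the libraries of the dermal groups did not overlap, so the signs of these dermal differences were fixed for any pairing as well. Of Csf1, Lif, Penk and Il6, only Csf1 and Lif were called in this comparison.

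The genes whose profile was most like that of each factor were found by Pearson correlation of log2 CPM over the 10 libraries, among 8051 tested genes with at least 20 CPM in a group (8052 for Penk). These correlations are descriptions over libraries of 4 groups and mostly reflect the differences between groups. Areg was most like Bambi (r = 0.995), Adora2a, an adenosine receptor gene (0.993), and Ccrl2 (0.989). Csf1 was most like Il2ra, the interleukin-2 receptor alpha chain (0.996), which averaged 87.7 CPM in epidermal, 100 in dermal CCR6+, 454 in dermal Sca1+ and 931 in subcutaneous libraries. Lif was most like Bmp1 (0.988), followed by Il5, the type 2 cytokine (0.986), with 95.4, 273, 1716 and 2774 CPM in the same order. Hbegf was most like Satb1 and Abcg2 (0.982 each) and Acer2 (0.981). Il6 was most like Jam2 (0.996), Fbln2 (0.993) and Isg15 (0.990). Jam2, a junctional adhesion molecule, averaged 0.0723 CPM in epidermal and 69.9 CPM in subcutaneous libraries, and Fbln2, an extracellular matrix gene, 0.342 and 118 CPM. Osm (Itga4, 0.950), Bmp7 (Akt2, 0.949) and Penk (Uba1, 0.931) had nearest genes at lower correlations.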

How the data were processed

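Per the labels' protocols, column-purified RNA was converted to cDNA with a SMART-Seq ultra low input kit and to libraries with Nextera XT, which keeps no record of strand. Trimmomatic, STAR, RSEM and the mm10 build are named in the submitters' processing notes, but no versions, settings or annotation release. There is 1 table of RSEM gene results per library, per the file headers. The expected counts were deposited by the authors as estimates in which ambiguous reads are split between genes, and 7.2% to 8.39% of them were not whole. The TPM values, corrected for length and scaled to a common total, are RSEM's, per the file headers, as deposited by the authors. The FPKM values were likewise deposited and were not used here. Of 47643 identifiers, 47224 were matched to a symbol and coordinates of GENCODE M21 (GRCm38), 39106 in the same version.

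Samples were grouped by the layer and sort marker in their titles. Expected counts were rounded and analysed with edgeR 4.0.16 in R 4.3.3: filterByExpr with a count minimum of 10 (16208 genes), TMM, and 1 quasi-likelihood model of the 4 groups over all 10 libraries (glmQLFit, glmQLFTest, two-sided), with Benjamini-Hochberg adjustment over all genes tested and a threshold of 0.05. The biological coefficient of variation was 0.62. The SE was derived by dividing the absolute log2 fold change by the root of F. The script was tested on simulated data. The alternatives were RLE size factors, DESeq2 1.42.0, limma 3.58.1 on log2(TPM + 1) and log2(TPM + 0.1), no filter beyond 1 count, at least 5 CPM in 2 libraries, only the 2 groups compared, a replicate block (title number, or run of deposited numbers), and leaving out each library. The 8 genes, the gene lists and the cell type markers were chosen with earlier results of these data known. From each of 10 pathway lists, called genes with at least 5 CPM in the higher group could be named, up to 4 per list and comparison by level, and the 3 genes most correlated with each of the 8, leaving out predicted, mitochondrial, ribosomal protein and antigen receptor genes. The TPM of Bmp2 and the level of Jam2, Fbln2, Il2ra and Il5 are given as those of genes named by this rule, and Egfr, Il34 and Clcf1 were named after their values were seen. Upstream sequences came from a RefSeq table (GRCm38.p6) in which Areg, Csf1, Lif and Il6 were matched, and not Osm, Bmp7 or Penk. Hbegf, on chromosome 18, was left out of the search.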

Additional observations from a re-analysis of the deposited data

How the results depend on the processing

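Of the 24 called differences of a gene in a comparison, 15 stayed called under all 19 alternatives and none changed sign. The calls of epidermal against subcutaneous, epidermal against dermal CCR6+ and epidermal against dermal Sca1+ ILCs, and those of the test over 4 groups, stayed within 1.5 times their number. Between the dermal populations (2 calls) DESeq2 gave 5, no filter 4, limma 1 with either pseudocount, a fit of only these groups 0, and leaving out a library 1 to 3. Between dermal Sca1+ and subcutaneous ILCs (1 call) DESeq2 and no filter gave 2, limma 0 with either pseudocount, and leaving out a library 0 to 1. Between dermal CCR6+ and subcutaneous ILCs (4 calls) leaving out a library gave 2 to 4. The share of all genes called also moved with the setting. In epidermal against subcutaneous ILCs it was 20.2% in the main test, 26.1% with DESeq2 and 15.9% with no filter. It was 16.5% with the block by title number and 18.9% with the block by run. For the dermal comparisons these shares are not given, so changed counts there cannot be told from a more or less liberal test. Whether title numbers pair the samples could not be decided. Deviations from the mean of a group sum to 0 within it, and the groups hold few libraries, so their correlations constrain each other. Same-numbered epidermal and subcutaneous libraries, which also share a run of deposited numbers, had correlated deviations of 0.114, 0.0174 and -0.0219. Not every library matched its own number best. With a replicate block by title number the calls were 7, 2, 2, 0, 5 and 3 in the 6 comparisons (epidermal against subcutaneous, epidermal against dermal CCR6+, dermal CCR6+ against dermal Sca1+, dermal Sca1+ against subcutaneous, epidermal against dermal Sca1+, dermal CCR6+ against subcutaneous) and 6 over 4 groups, and with a block by run of deposited numbers 7, 3, 2, 1, 6, 4 and 6. The differences that changed sign were all uncalled. Penk in epidermal against subcutaneous ILCs was -0.07 without epidermal replicate 1 (range over left-out libraries -0.07 to 0.76). In dermal Sca1+ against subcutaneous ILCs, the log2 fold change of Areg was 0.08 under the block by run, that of Hbegf 0.06 in limma with either pseudocount, 0.01 under the replicate block by title number and -0.35 to 0.39 over left-out libraries, positive without subcutaneous replicate 2, that of Osm -1.07 to 0.39, positive without dermal Sca1+ replicate 2 (0.39) or subcutaneous replicate 2 (0.13), and that of Bmp7 -0.37 to 0.03, positive without subcutaneous replicate 3. In limma on log2(TPM + 1) the pseudocount reduces large differences of low genes, and Il6 in epidermal against subcutaneous ILCs was -7.06. The main limits are 2 libraries in either dermal population, 12 counts of Il6 in all epidermal libraries together, and marker transcripts of other skin cells that differ between the layers.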
